A study of Mus musculus with 7 samples.

Results

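The genes described here encode the pore-forming and auxiliary subunits of voltage-gated ion channels and of the wider potassium channel families. The members were all 126 symbols of the 21862 in the deposited gene list that begin with Kcn, with Scn and a digit, or with Cacna, Cacnb or Cacng. They comprised 88 potassium, 12 sodium and 26 calcium channel genes. The rule goes by name, so it also took channels without a voltage sensor, such as the inward rectifiers (Kcnj, 15 genes), the leak channels (Kcnk, 12 genes) and the Kcnn channels, and the Cacng genes, whose products mostly accompany AMPA-type glutamate receptors.

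Voltage-gated sodium channels open on depolarization and carry the rising phase of the action potential, and their beta subunits set gating and position in the membrane. Voltage-gated calcium channels admit the calcium that drives transmitter release, growth and transcription, with alpha2delta and beta subunits that bring the pore-forming alpha1 subunit to the membrane. Potassium channels repolarize the cell, and inward rectifiers and leak channels set the resting potential. In the embryonic cortex, apical progenitors (radial glia and their precursors) line the ventricle and divide, intermediate progenitors divide away from it and yield neurons, projection neurons settle in layers, interneurons arrive from ventral sources, and Cajal-Retzius cells occupy the surface.

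Single cells of dorsal forebrain from untreated CD-1 mouse embryos, an outbred strain, were captured in droplets with barcoded beads (Drop-seq), which tags the 3′ ends of polyadenylated RNA with a molecular identifier (UMI). The 7 samples covered 6 stages, embryonic day (E) 10.5, E12.5, E14.5 (2 samples), E15.5, E16.5 and E18.5. No litter or embryo is identified in the labels, nor how many embryos were pooled, so p-values here cover variation among samples that could be technical in part. The files held 10261 cells with 27776936 UMIs, from 1519473 UMIs at E16.5 to 6638760 in E14.5 replicate 1, and gave each cell 1 of 19 cluster numbers without names. One of the libraries counted under E14.5 replicate 1 was assigned by inference, since its name matches the labels only in its stem.

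The cluster numbers were grouped by marker genes into apical progenitors (labels 1, 3, 6, 10 and 12), intermediate progenitors (4 and 7), projection neurons (2, 5, 9 and 11), interneurons (8) and Cajal-Retzius cells (13). Label 0 has no marker list of its own and keeps its number. Its 1812 cells carried projection neuron markers (Neurod2, Tbr1, Tubb3 and 17 others) at 6910 to 11695 counts per 1000000 UMIs (CPM), between the intermediate progenitors (2095 to 4655) and the projection neurons (15408 to 17599). At 2-fold or more over the other cells it had 5 intermediate progenitor and 4 projection neuron markers, and its leading genes included Unc5d, Neurod1, Nhlh1 and Sstr2. The dorsal forebrain gene Emx1 was present in every sample at 67.3 to 219 CPM. Haemoglobin genes exceeded 2% of the UMIs in 13 cells, which were set aside. Only 4 barcodes occurred in more than 1 library. In 5 libraries, 518 cells formed 151 sets whose barcodes differ in the last base alone, and 26 sets spanned more than 1 class.

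The members held 36840 UMIs, 0.133% of all UMIs. No UMI was counted for 2 members, 28 had 1 to 9, 41 had 10 to 99, and 55 had 100 or more. To compare classes over samples, UMIs were summed over the cells of a class in a sample where it had at least 20 cells, and levels are given in CPM of that sum. Since tags are counted at 3′ ends, a gene is compared across classes and not with other genes. A class with fewer UMIs per sum has a coarser floor, 3 counts being worth 1.05 to 11.01 CPM in apical progenitors, 1.51 to 4.07 CPM in projection neurons and 14.5 to 36.9 CPM in interneurons. In Cajal-Retzius cells 3 counts were worth 13.5 to 61.9 CPM.

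Summed over all 126 genes, the median level was higher at each step from progenitors to neurons. It was lowest at 397, median 653 and highest at 1276 CPM over 7 samples of apical progenitors, and 587, 796 and 1027 CPM over 7 samples of intermediate progenitors, so that these classes overlapped. Label 0 reached 1220.2, 1369 and 1536 CPM over 6 samples, above every sample of intermediate progenitors. Projection neurons had 1764, 2358 and 2483 CPM over 6 samples, again without overlap with label 0. The 7 interneuron samples had 836, 2507 and 2841 CPM. The low value was E10.5, whose 30 cells also had more apical progenitor markers (2414 CPM against 561 to 1256 in the other samples) and fewer interneuron markers (5759 against 7193 to 9679); their part in the result was not tested. The 5 Cajal-Retzius samples had 1719, 3673 and 5052 CPM. Mesenchymal cells of E10.5, which entered no comparison, had 279 CPM. Of the 36840 UMIs of the members over all cells, Cacng4 held 5556, Cacna2d1 3457 and Scn3a 2427, so a few genes weigh heavily on the sum.

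**Figure D1:**
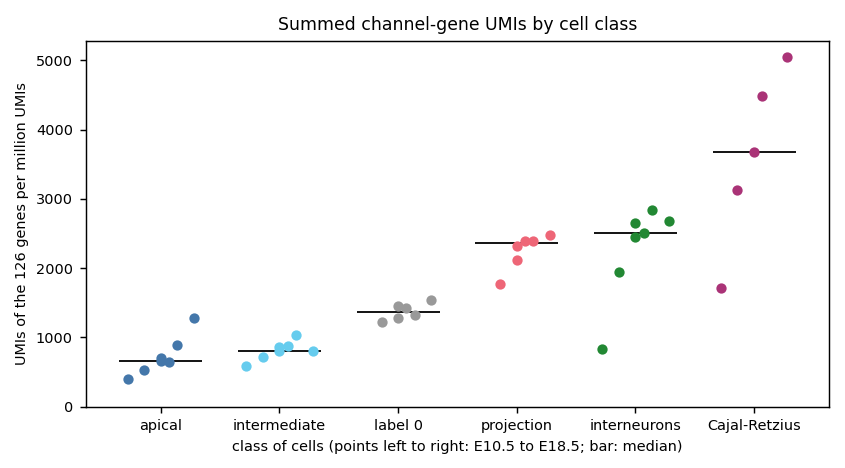
CPM summed over the 126 channel genes (vertical axis, from 0) in each class of cells; each point is 1 sample, ordered from E10.5 to E18.5 from left to right within a class, and the bar is the median over samples. Label 0 lies between intermediate progenitors and projection neurons, and the low interneuron point is E10.5.

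Members were spread unevenly over the classes. At least 1 UMI was found for 95 members in apical progenitors, 82 in intermediate progenitors, 83 in label 0, 103 in projection neurons and 80 each in interneurons and Cajal-Retzius cells, numbers that also follow the depth of each class. A median of at least 10 CPM over samples was reached by 14 members in apical progenitors, 18 in intermediate progenitors, 29 in label 0, 41 in projection neurons, 36 in interneurons and 30 in Cajal-Retzius cells.

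The 8 sodium channel alpha subunit genes together had a median of 23.6 CPM in apical and 66.6 CPM in intermediate progenitors, against 243 CPM in label 0, 325 CPM in projection neurons and 492 CPM in interneurons. Scn3a (Nav1.3, the embryonic sodium channel, chr2:65457118-65567627 in GRCm38) had a lowest, median and highest value of 0, 3.67 and 19.8 CPM in apical progenitors, 7.93, 26.5 and 47.6 in intermediate progenitors, 127, 142 and 163 in label 0, 100.5, 180.2 and 229 in projection neurons, and 37.6, 319 and 384 in interneurons. Label 0 and intermediate progenitors did not overlap for Scn3a, and interneurons lay above projection neurons in each of the 6 samples that hold both. Scn2a1 (Nav1.2, named Scn2a in current annotations, chr2:65620771-65767447) stayed at or below 5.20 CPM in every progenitor sample. It had 10.9, 12.2 and 20.9 CPM in label 0 and 38.8, 78.7 and 117 CPM in projection neurons, with no overlap. Scn1a (Nav1.1, known in adults for fast-spiking interneurons) was highest in interneurons with a median of 72.5 CPM, followed by label 0 with 41.2 CPM, projection neurons with 20.9 CPM, intermediate progenitors with 5.56 CPM and apical progenitors with 1.78 CPM, and lowest in Cajal-Retzius cells, where 3 of 5 samples were at 0. Scn8a (Nav1.6) was the most even of the alpha subunits named, with class medians from 10.4 CPM in apical progenitors to 47.0 CPM in interneurons. Scn9a (Nav1.7) was at a median of 0 in both progenitor classes and at 15.6 CPM in projection neurons. Scn3b, the beta3 subunit, also had higher values in label 0 than in progenitors and higher ones still in projection neurons. Its lowest, median and highest values were 0, 0.351 and 9.89 CPM in apical progenitors, 8.93, 23.6 and 32.1 CPM in label 0, and 47.9, 84.0 and 125 CPM in projection neurons. Of the other beta subunit genes, Scn2b had a highest class median of 5.93 CPM, in projection neurons, and Scn4b had a median of 0 in all 6 classes.

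Among calcium channel alpha1 subunit genes, Cacna1b (Cav2.2, the N-type channel of transmitter release) had a lowest, median and highest value of 0, 0.363 and 5.20 CPM in apical progenitors, 0, 15.2 and 23.2 in label 0, and 36.5, 54.0 and 62.2 in projection neurons. Interneurons reached 47.0, 61.6 and 164 CPM. Cacna1a (Cav2.1, P/Q-type) was already at 23.1 CPM in apical progenitors, and its medians were highest in intermediate progenitors (63.9 CPM) and Cajal-Retzius cells (90.6 CPM). For the L-type genes Cacna1c and Cacna1d the highest class median was that of projection neurons, at 15.8 and 38.7 CPM, and for the R-type gene Cacna1e it was 27.6 CPM in projection neurons against at most 3.22 CPM elsewhere. The mean of Cacna1e over 6 interneuron samples was 4.20 CPM, under the floor of 3 counts there. Cacna1e was not tested between classes. The T-type genes Cacna1g and Cacna1h had their highest medians in interneurons, at 12.3 and 22.1 CPM. Both lie within or under the floor of 3 counts there, 14.5 to 36.9 CPM. Neither passed against projection neurons in the edgeR test below (adjusted p = 0.11 and 0.93).

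Among the auxiliary subunit genes, Cacna2d1 (alpha2delta-1, chr5:15934691-16374511) had a median of 18.1 CPM in apical progenitors, 103 in intermediate progenitors, 200.5 in label 0, 168 in projection neurons and 529.7 in Cajal-Retzius cells, but 8.16 CPM in interneurons. The highest interneuron sample, 25.9 CPM, lay below the lowest sample of projection neurons, 153 CPM. Cacna2d2 (alpha2delta-2) was at a median of 767 CPM in Cajal-Retzius cells, where it is one of the genes that define the label, and at 34.5 CPM in interneurons against 1.38 CPM in projection neurons. Cacna2d3 had medians of 2.97 CPM in label 0, 22.5 in projection neurons, 55.7 in interneurons and 103 in Cajal-Retzius cells. The beta subunit gene Cacnb3 went from 10.5 CPM in apical progenitors to 62.6 in label 0 and 90.4 in projection neurons. Cacnb4 had its highest median in interneurons, 140.1 CPM, against 67.3 CPM in projection neurons. Cacng2 (stargazin, an AMPA receptor partner) had 0, 0.726 and 3.67 CPM in apical progenitors, 7.57, 15.8 and 64.1 in label 0, 31.2, 44.9 and 88.0 in projection neurons and 18.8, 156 and 337 in interneurons. Cacng4, of the same family, was high in apical progenitors (119.6, 147 and 322 CPM), low in intermediate progenitors (34.6, 48.3 and 86.1) and label 0 (76.5, 84.5 and 157), and high again in projection neurons (248, 338 and 375).

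**Figure D2:**
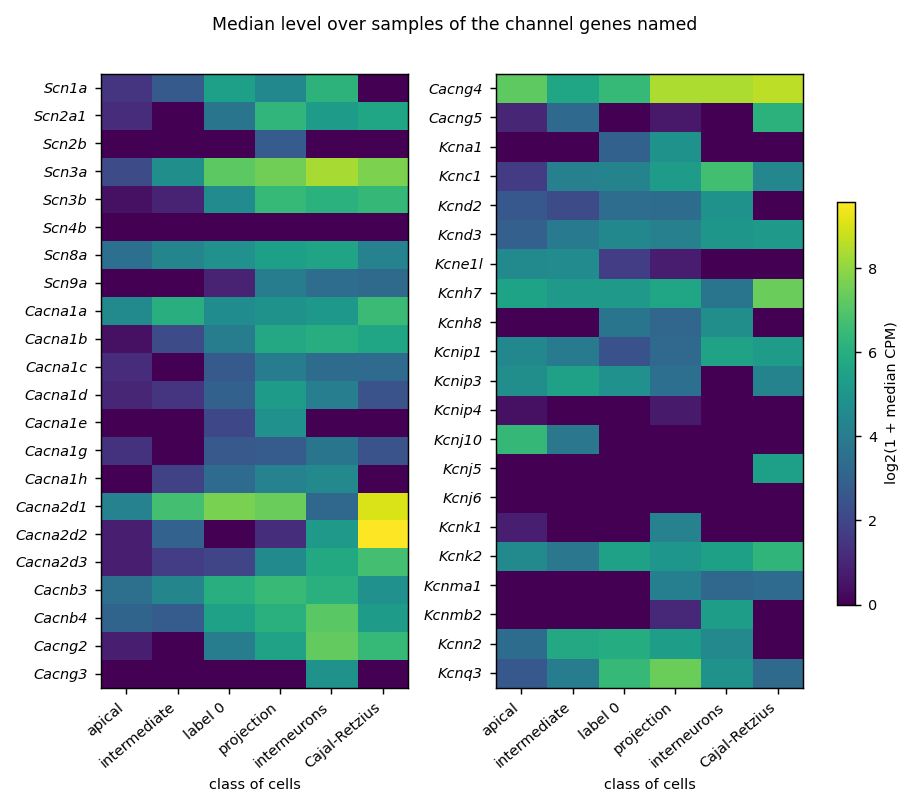
Median level over samples of the channel genes named in the text, as log2(1 + CPM), in the 6 classes; sodium, calcium and potassium channel genes follow each other from the upper left to the lower right. Dark cells are medians at or near 0; most sodium and calcium channel genes brighten from label 0 on, while Kcnj10 and Kcne1l are bright in the progenitor columns.

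Some potassium channel genes were found mainly in progenitors and others mainly in neurons. Kcnj10 (Kir4.1, the inward rectifier of glia, chr1:172341210-172374085) had a lowest, median and highest value of 5.62, 83.3 and 161 CPM in apical progenitors and 0, 12.97 and 47.6 CPM in intermediate progenitors. No UMI of Kcnj10 was counted in the 6 samples of label 0, where 3 counts over all samples would be 0.885 CPM, nor in any Cajal-Retzius sample, and 2 UMIs were counted in each of projection neurons and interneurons. Kcne1l (an auxiliary subunit gene of the Kcne family) had medians of 22.7 and 23.6 CPM in the progenitor classes and at most 2.32 CPM elsewhere. Kcnq3 (M-type channel, which damps repetitive firing) had 0, 5.20 and 14.8 CPM in apical progenitors, 47.2, 84.3 and 123 in label 0 and 104, 172 and 279.6 in projection neurons. In interneurons its median was 28.2 CPM. Kcna1 (Kv1.1, a channel of axons) had 8.53, 28.8 and 46.8 CPM in projection neurons and 0 UMIs in all 7 interneuron samples, where the floor of 3 counts over the samples shared with projection neurons is 3.99 CPM.

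Of the other potassium channel genes, Kcnc1 (Kv3.1, which allows fast spiking) had its highest median in interneurons, 101 CPM, against 38.5 CPM in projection neurons. Kcnd2 (Kv4.2) and its relative Kcnd3 had medians of 9.57 and 16.995 CPM in projection neurons and 29.4 and 32.7 CPM in interneurons. Neither difference passed in the edgeR test below (adjusted p = 0.49 and 0.39). Kcnip1, which binds Kv4 channels, was at 44.5 CPM in interneurons, at 21.4 CPM in apical progenitors and at 4.33 CPM in label 0. Kcnn2 (SK2, opened by calcium) was highest in label 0 and intermediate progenitors with medians of 59.8 and 54.4 CPM, and Cajal-Retzius cells had a median of 0. Kcnh7 (an ether-à-go-go-related channel) lay between 12.3 CPM in interneurons and 167 CPM in Cajal-Retzius cells. The leak channel gene Kcnk2 (TREK-1) was present in every class, with medians from 12.97 to 76.7 CPM, whereas Kcnk1 (TWIK-1) had a median of 18.002 CPM in projection neurons and at most 0.726 CPM elsewhere. Kcnma1 (BK) reached 16.6 CPM in projection neurons. The medians of Kcnip4 were at or below 0.629 CPM, and Kcnj6 had a median of 0 in every class. For Kcnip4, 21 UMIs of Cajal-Retzius cells came from E18.5 alone.

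**Figure D3:**
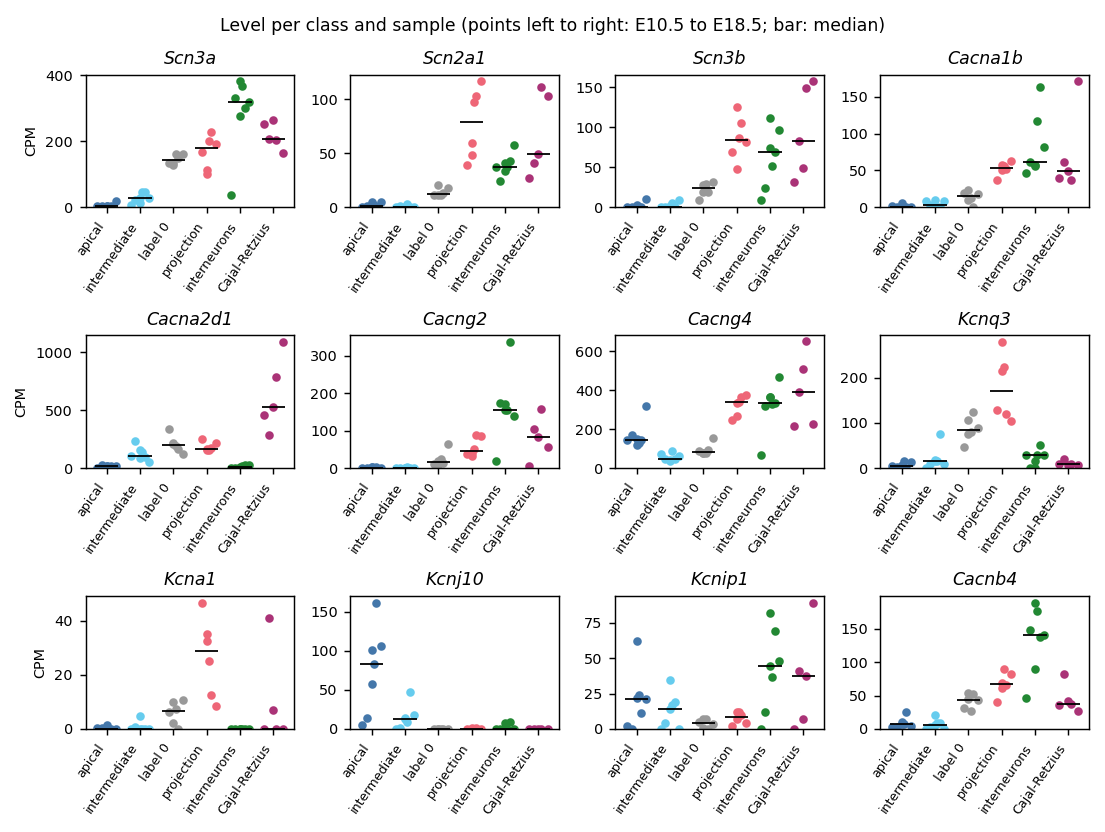
CPM (vertical axes, each from 0) of 12 channel genes in each class; each point is 1 sample, ordered from E10.5 to E18.5 from left to right within a class, and the bar is the median. Scn2a1 and Scn3b step up at label 0 and again at projection neurons, Kcnj10 is confined to the 2 progenitor classes apart from 4 UMIs, Kcna1 is at 0 in all interneuron samples, and Cacna2d1 is near 0 there.

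The classes were compared within samples in 1 edgeR quasi-likelihood fit with the sample as a block. Of 8681 genes that passed the filter on low counts, 40 were members. The other 86 members did not pass this filter, which goes by the level in single sums and not by total counts. Kcnj3 (338 UMIs in all cells) and Kcnk1 (271) were left out, while Kcnmb2 (59), Cacng3 (36) and Kcnj5 (29) passed. A member that is high in 1 class alone could pass the filter through that class. Cacng3, Kcnmb2 and Kcnh8, highest in interneurons, Kcna1, highest in projection neurons, and Kcnj5, highest in Cajal-Retzius cells, are such members. Their calls as higher there are no support for a difference, though they enter the counts and medians below. The cluster numbers were made from these same counts, so the tests say how constant a difference was over samples, and do not independently show that the classes differ. With all 518 cells of near-identical barcodes left out, 10, 18, 12, 18, 14 and 13 members passed an adjusted p of 0.05 in the 6 comparisons below, against 9, 17, 11, 18, 15 and 15 with all cells. For this and the other alternative runs below, the shares of all genes called are not reported here. A changed count of members in such a run therefore does not set the members apart from other genes.

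From apical to intermediate progenitors, 7 of the 40 tested members rose and 2 fell, while 28.2% of all genes tested changed in either direction (11.9% rose and 16.3% fell). The median log2 fold change of members was 0.51, or 0.60 without 2 genes that had too few counts for a fold, against −0.09 over all genes. Calcium channel genes made up 3 of the 7 that rose, 2 of 5 tested alpha1 subunit genes and 1 of 3 alpha2delta subunit genes. None of 2 tested beta subunit genes rose, nor any of 5 Cacng genes, of which 1 fell. Cacna2d1 rose by 3.02 on the log2 scale (SE 0.29, adjusted p = 7.89e-11, higher in 7 of 7 samples, no overlap), Scn3a by 2.38 (SE 0.42, adjusted p = 2.36e-05, 7 of 7 samples) and Kcnn2 by 2.19 (SE 0.30, adjusted p = 2.19e-07, 6 of 7 samples). Cacna1a rose 2.54-fold in 7 of 7 samples, Kcnb2 rose 7.04-fold in 6 of 7 samples, and Cacna1b 3.88-fold in 4 of 7. Kcnq3 rose 2.28-fold in 5 of 7 samples (adjusted p = 0.0417), a call that was lost without any one of E12.5, either E14.5 sample or E16.5. The call for Cacna1b was lost without E12.5 or without E14.5 replicate 1. In the other direction, Kcnj10 fell by 2.56 (SE 0.32, adjusted p = 2.07e-07) and Cacng4 fell by 1.73 (SE 0.25, adjusted p = 6.28e-07), each in 7 of 7 samples. Among the 30 partner genes of excitability (axon initial segment scaffolds, ion pumps, channel modifiers), 20 were tested, of which 2 rose and 11 fell. The 2 that rose were Ank3 and Nfasc, scaffolds of the initial segment, by 1.08 and 1.21. Rest, the repressor of neuronal genes, fell by 2.88.

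Intermediate progenitors and label 0 differed in 17 of the 40 members, 13 higher in label 0 and 4 lower, with 28.4% of all genes changed (13.2% higher, 15.2% lower). The members' median was 0.76 against −0.03 over all genes. Of the sodium channel genes, 3 of the 4 tested alpha subunit genes and the 1 tested beta subunit gene rose. Scn3b rose by 3.21 (SE 0.55, adjusted p = 1.36e-05), Scn1a by 2.59 (SE 0.47, adjusted p = 3.08e-05) and Scn3a by 2.29 (SE 0.30, adjusted p = 1.13e-07), each in 6 of 6 samples with no overlap. Scn2a1 was counted with 44 UMIs in label 0 and 2 in intermediate progenitors of the shared samples, a ratio of 18.1 with a 95% counting interval from 4.73 to 155. For Cacng2, 59 against 3 UMIs gave a ratio of 16.2, from 5.29 to 80.9. Both tested beta subunit genes of calcium channels were higher, Cacnb4 5.84-fold and Cacnb3 3.40-fold, and so was Kcnq3, 4.85-fold. Kcna1, Kcnh8, Cacna1b and Kcnk2 also rose, at 4.34-fold, 7.20-fold, 2.74-fold and 2.47-fold, in 5, 6, 4 and 6 of 6 samples, and DESeq2 did not call Kcna1.

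Kcnj10 was at least 10.9-fold lower in label 0 than in intermediate progenitors, taking 3 counts over the 6 samples as the floor. Kcne1l fell by 2.48 (SE 0.69, adjusted p = 0.00503) and Cacna1a fell by 1.33 (SE 0.27, adjusted p = 0.000189), each in 6 of 6 samples, and Cacng5, with 3 UMIs in label 0, had a ratio of 6.47 (1.85 to 34.6). With Kcnj10 at its bound and without 2 members that had too few counts for a fold, the members' median was 0.89. Of 20 partner genes tested 7 rose and none fell, among them Ank3 by 2.79 and Unc79, a partner of the sodium leak channel, by 2.98. The call for Cacng5 was lost without any one of E15.5, E16.5 and the pair of E14.5 samples, and that for Cacna1b without any one of E12.5, E14.5 replicate 2 and E15.5.

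Projection neurons had 10 members higher and 1 lower than label 0, and 19% of all genes changed (9.84% higher, 9.13% lower). The median was 0.43 for members, or 0.42 without 3 sparse genes, and −0.03 for all genes. Scn2a1 rose by 2.32 (SE 0.24, adjusted p = 1.24e-09), Cacna1d by 2.31 (SE 0.39, adjusted p = 2.45e-05) and Scn3b by 1.87 (SE 0.27, adjusted p = 1.2e-06), each in 6 of 6 samples with no overlap. Cacna1b rose 3.43-fold and Cacng4 3.51-fold, also without overlap. Cacna2d3 rose 4.56-fold and Cacng2 2.57-fold in 6 of 6 samples, and Kcna1 4.31-fold and Kcnq3 2.16-fold in 5 of 6 samples. Kcna1 passed the filter through projection neurons, so its call is no support for a difference. Cacnb4 rose 1.66-fold, a call lost without E15.5. Scn3a, which had risen at the step before, had a log2 fold change of 0.18 here (adjusted p = 0.66), and Cacna2d1 one of −0.17 (adjusted p = 0.67). Scn1a was 1.90-fold lower in projection neurons, in 5 of 6 samples, with an adjusted p of 0.0492 that passed the threshold in 4 of 17 alternatives. Of the 20 partner genes tested 12 rose, among them the Kv4 partners Dpp6 and Dpp10 by 2.98 and 4.07, the sodium channel modifier Fgf14 by 3.56 and Rest by 1.28, and none fell.

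Label 2 accounted for 91.8% of projection neurons in the E12.5 sample and for 0.584% in that of E18.5. With label 2 alone, 6 members were higher than in label 0 and none was lower. Scn2a1, Scn3b, Cacna1b, Cacna1d, Cacng4 and Kcnq3, which is among the genes that define label 2, kept their calls, whereas Cacna2d3 (0.49), Cacng2 (0.89) and Cacnb4 (0.26) did not. Without E10.5, which has fewer than 20 cells of either class but enters the filter and the common spread through other classes, 17 members passed.

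**Figure D4:**
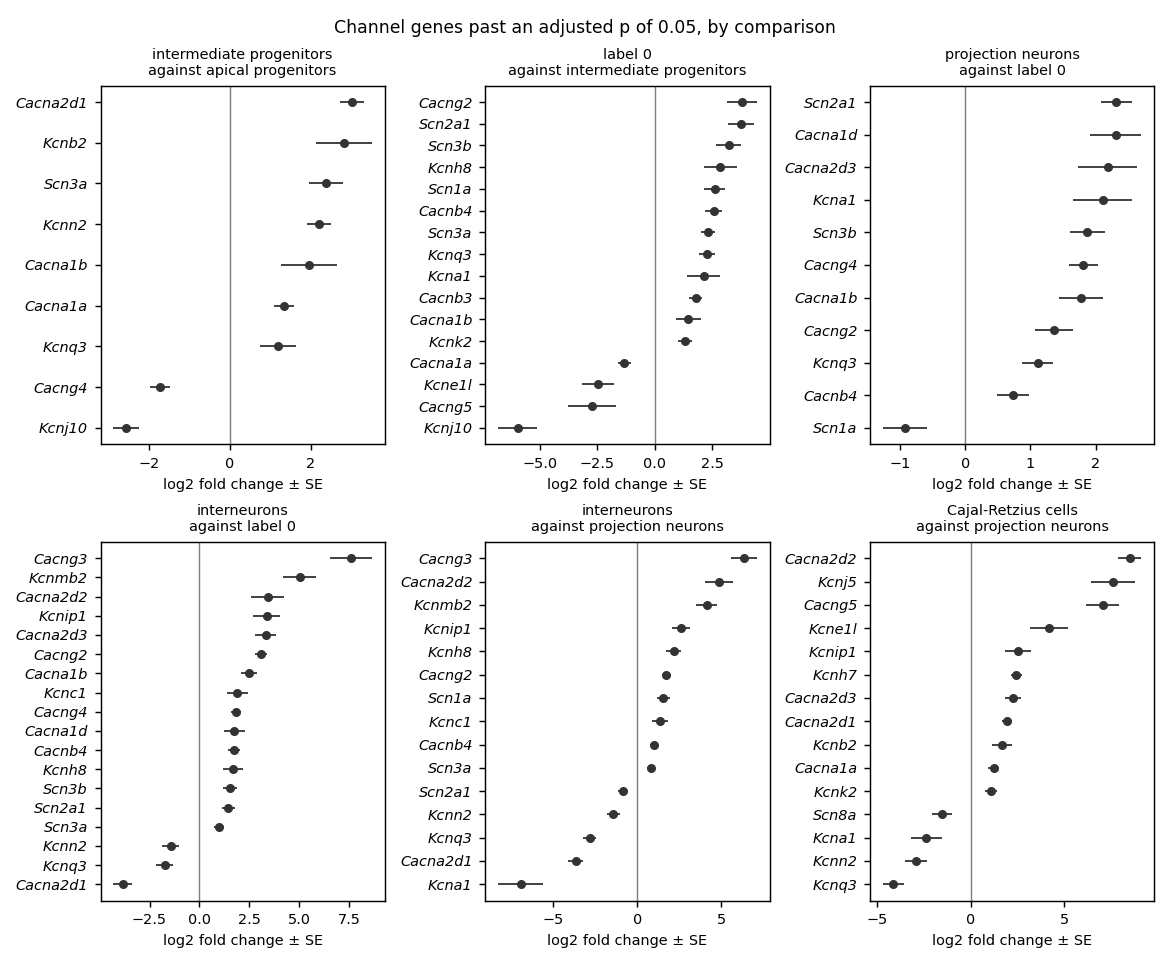
log2 fold change (horizontal axes) of the channel genes reported here that passed an adjusted p of 0.05 in each of the 6 comparisons between classes, with bars of 1 SE from the edgeR fit. The axes differ in range; genes with no counts in 1 class (Kcnj10, Cacng3, Kcna1, Kcnj5) have fitted values that are not bounds, for which folds against the floor stand in the text.

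Between interneurons and label 0, 15 members were higher in interneurons and 3 lower, against 15.3% of all genes changed (7.35% higher, 7.94% lower), with a median of 0.92 for members and −0.02 for all genes. Cacng3, another AMPA receptor partner, had 32 UMIs in interneurons and none in label 0, at least 48.1-fold higher, but it did not pass in DESeq2. Kcnmb2, a BK channel subunit, had 30 against 3 UMIs, a ratio of 45.1 (14.02 to 231). Kcnip1 was higher in interneurons by 3.38 on the log2 scale (SE 0.68, adjusted p = 0.000242), Cacna2d3 by 3.32 (SE 0.51, adjusted p = 4.47e-06) and Cacng2 by 3.08 (SE 0.32, adjusted p = 6.27e-10), each in 6 of 6 samples with no overlap. Cacna2d2 was 10.8-fold and Cacna1b 5.53-fold higher. Lower were Cacna2d1, by 3.85 (SE 0.46, adjusted p = 2.61e-08, no overlap), Kcnq3, 3.33-fold, and Kcnn2, 2.73-fold, each in 6 of 6 samples. With 3 genes at their bounds and 1 left out, the members' median was 1.001. Of 20 partner genes 13 were higher and 2 lower, the latter Nfasc and Cntnap2. The call for Cacna1d was lost when E14.5 replicate 1 or any later stage was left out.

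Interneurons and projection neurons, which share 6 samples, differed in 15 members, 10 higher and 5 lower in interneurons, with 12.2% of all genes changed (5.66% higher, 6.53% lower). Here the members' median was 0.15, or 0.18 with 1 gene at its bound, against −0.01 over all genes. Cacng3 was counted 32 times in interneurons and 2 times in projection neurons, a ratio of 172 with a counting interval from 43.8 to 1480, and it did not pass in DESeq2. Cacna2d2 was higher by 4.87 on the log2 scale (SE 0.84, adjusted p = 3.05e-05), Kcnip1 by 2.59 (SE 0.55, adjusted p = 0.000776) and Cacng2 by 1.72 (SE 0.26, adjusted p = 4.02e-06), each without overlap in 6 of 6 samples. Kcnmb2, with a fitted log2 fold change of 4.13, had 30 UMIs in interneurons and 19 in projection neurons. Like Cacng3 and Kcnh8 it passed the filter through interneurons, so its call is no support for a difference. Kcnh8 was 4.45-fold, Scn1a 2.93-fold and Scn3a 1.77-fold higher. On the other side, Kcna1 was at least 6.24-fold lower in interneurons than in projection neurons, Cacna2d1 was lower by 3.67 (SE 0.46, adjusted p = 6.11e-08) and Kcnq3 by 2.85 (SE 0.38, adjusted p = 2.74e-07), with no overlap for any of the 3. The call for Kcna1 is no support for a difference, since that gene passed the filter through projection neurons. Kcnn2 was 2.69-fold and Scn2a1 1.83-fold lower. Log2 fold changes near 0 were found for Cacng4 (0.01, SE 0.22) and Cacna1a (−0.06, SE 0.33), neither of which passed. Without the sample block 8 members passed, and without E14.5 replicate 1 also 8. The calls for Scn1a and Kcnn2 were lost without E14.5 replicate 1, and that for Scn3a without any one of E12.5, E15.5 and the pair of E14.5 samples. Scn2a1 lost its call when any stage after E14.5 was left out, and Kcnc1, 2.53-fold higher, lost its own in 11 of 16 alternatives. Of 20 partners 5 were higher and 3 lower.

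Cajal-Retzius cells and projection neurons shared 4 samples with at least 20 cells of each. The joint fit also held the E10.5 sum of Cajal-Retzius cells and the E14.5 replicate 2 and E16.5 sums of projection neurons. These bear on the comparison through the other classes of their samples. In this fit 11 members were higher in Cajal-Retzius cells and 4 lower, and 14.8% of all genes changed (7.98% higher, 6.78% lower). The median was 0.03 for members, or 0.15 with 1 gene at its bound, and near 0.00 for all genes. Apart from Cacna2d2, a defining gene of the label, Kcnh7 was higher by 2.44 on the log2 scale (SE 0.31, adjusted p = 1.13e-07), Cacna2d1 by 1.92 (SE 0.26, adjusted p = 6.26e-07) and Cacna2d3 by 2.26 (SE 0.41, adjusted p = 7.21e-05), each in 4 of 4 samples with no overlap. Kcnj5, an inward rectifier gated by G proteins, had 18 UMIs in Cajal-Retzius cells and none in projection neurons, at least 88.3-fold higher, but it did not pass in DESeq2. Cacng5 had 0, 69.7, 112 and 165 CPM at E12.5, E14.5 replicate 1, E15.5 and E18.5, against at most 1.51 CPM in projection neurons. Kcnip1 was 5.77-fold and Kcnb2 3.17-fold higher, in 3 of 4 samples each, and both had the opposite sign when only sums of at least 50 cells were used, a setting that leaves E14.5 replicate 1 as the 1 sample with both classes. Cacna1a was 2.33-fold and Kcnk2 2.08-fold higher in 4 of 4 samples, and Kcne1l, higher in 1 sample and lower in another, had a fitted log2 fold change of 4.18 (SE 1.04). The calls were lost without E15.5 for Cacna1a, without E12.5, E14.5 replicate 1 or E15.5 for Kcnk2, without E14.5 replicate 1 for Kcne1l, without E14.5 replicate 2 for Kcnb2 and without E18.5 for Kcnip1. Kcnq3 was lower in Cajal-Retzius cells by 4.13 (SE 0.56, adjusted p = 4.43e-07) in 4 of 4 samples with no overlap. Kcnn2, with 2 UMIs in Cajal-Retzius cells, had a ratio of 12.9 (3.55 to 107) in favour of projection neurons. Kcna1, with 3 UMIs, had a ratio of 3.74 (1.26 to 18.3), and Scn8a was 2.90-fold lower, calls lost in 9 of 10 and 8 of 16 alternatives, among them those without E10.5 and without E18.5. Without the sample block 8 members passed. Markers of hem and choroid plexus were at 192 to 1045 CPM in Cajal-Retzius cells and at 40.2 to 273 CPM in projection neurons, and their part in these differences was not tested.

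Within a class, levels were fitted against embryonic day over samples. The slopes are in log2 units per day, and each stage other than E14.5 has 1 sample. The share of mitochondrial UMIs also differed between samples, with medians per cell from 2.25% in E14.5 replicate 1 to 7.53% at E18.5, and its part was not tested.

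In apical progenitors, 5 of 13 tested members rose with day and none fell, while 9.31% of 8392 genes changed (6.39% rose, 2.92% fell). The members' median slope was 0.30, against 0.00 over all genes. Kcnd3 rose by 0.77 per day (SE 0.11, adjusted p = 0.00107) and went through 0.351, 2.18, 6.68, 5.20, 14.8, 25.7 and 39.6 CPM from E10.5 to E18.5. Kcne1l rose by 0.68 (SE 0.12, adjusted p = 0.00413), from 3.51 CPM at E10.5 to 114 CPM at E16.5 and 61.0 CPM at E18.5. Kcnj10 rose by 0.60 (SE 0.11, adjusted p = 0.00505), from 5.62 to 161 CPM at E16.5 and 106 CPM at E18.5. Kcnip3, a calcium sensor that binds Kv4 channels, rose by 0.59 (SE 0.07, adjusted p = 0.000552) and was highest at E18.5 with 119 CPM against at most 33.8 CPM before. Kcnk2 rose by 0.37 (SE 0.08, adjusted p = 0.0134), a call lost without E10.5. Of the 13 partner genes tested, Atp1b2 and Atp1b1, both sodium pump beta subunits, rose by 0.68 and 0.52, and Cntnap2 fell by 0.39 per day.

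The makeup of the apical progenitors changed over the same days. Label 6 held 90.8% of them at E10.5, and label 12, which is led by Olig1, Olig2 and Tnc, held none at E10.5 and E12.5 and 83.4% at E18.5. Markers of oligodendrocyte precursors were at 205 CPM at E16.5 and 1204 CPM at E18.5, against at most 21.8 CPM before. Projection neuron markers lay between 613 and 1408 CPM, the highest at E18.5. With labels 6 and 12 left out, Kcne1l and Kcnj10 kept their slopes at 0.82 and 0.64, Kcnip3 (0.43, adjusted p = 0.20) and Kcnk2 (0.34, adjusted p = 0.30) did not pass, and Kcnd3 was too sparse to test. In all 2 members passed there. Few cells were left at the late stages, with 3, 2 and 20 of labels 1, 3 and 10 at E16.5 and 5, 2 and 17 at E18.5. At E10.5 these labels had 34, 28 and 1 cells, so the makeup still changed with day. Without E14.5 replicate 2, E15.5 or E16.5, 8 members passed.

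The start regions of these 5 genes are shown because they rose together in 1 class. The sequences are RefSeq promoters on GRCm38.p6 (mm10), read 5′ to 3′ on the strand of the gene, each a stretch of 60 bases from the 250 bases before an annotated start. They were searched for GGACAG, on both strands (so also as CTGTCC), and for TTCAGCACC, parts of the RE1 element that Rest binds; capitals mark each match to GGACAG. Where a gene has several starts, the first listed start is given.
Kcnd3: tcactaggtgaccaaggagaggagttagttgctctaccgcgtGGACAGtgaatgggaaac
Kcne1l: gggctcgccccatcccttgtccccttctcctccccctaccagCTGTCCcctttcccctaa
Kcnip3: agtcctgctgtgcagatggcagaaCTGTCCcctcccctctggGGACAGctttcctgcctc
Kcnk2: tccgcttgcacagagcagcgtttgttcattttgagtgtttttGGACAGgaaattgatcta
Kcnj10: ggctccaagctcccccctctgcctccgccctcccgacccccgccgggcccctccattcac

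The stretches lie at chr3:105451668-105451727 (plus strand, Kcnd3), chrX:142306295-142306354 (minus, Kcne1l), chr2:127522275-127522334 (minus, Kcnip3), chr1:189402300-189402359 (minus, Kcnk2) and chr1:172341150-172341209 (plus, Kcnj10, the 60 bases just before the start). That of Kcnd3 overlaps an exon of the antisense gene Kcnd3os, and no annotated exon overlaps the other 4. GGACAG was found before a start of 4 of the 5 genes, in 5 of their 10 promoters, but a 6-base motif is common by length alone, and 18.7% of all 32851 promoters and 20.2% of the 129 promoters of 93 members hold it. TTCAGCACC was found in 0.301% of all promoters and in 1 member, Kcnh6. A match is a string of letters and was not tested as a site. In the edgeR fit of apical progenitors, Rest itself had a slope of 0.006 per day (SE 0.04, adjusted p = 0.95). A link of these genes to Rest was not tested. Among the 13 members that rose from intermediate progenitors to label 0, 8 had a promoter in the table, and GGACAG was present for 2, Cacnb3 and Kcnk2.

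In projection neurons, 5 of 53 tested members rose with day and 1 fell, while 3.08% of 9712 genes changed (2.05% rose, 1.03% fell). The members' median slope was 0.08, against 0.00 over all genes. Kcnk1 rose by 0.76 per day (SE 0.13, adjusted p = 0.00618), from 0 at E12.5 to 61.7 CPM at E18.5, but it helps define label 9, which grew over these days. Kcnd2 rose by 0.65 (SE 0.08, adjusted p = 0.0012), from 4.56 to 51.7 CPM, with E16.5 at 16.3 CPM. Kcnk2 rose by 0.46 (SE 0.08, adjusted p = 0.011), through 13.7, 19.4, 21.7, 41.9, 66.6 and 70.3 CPM. Scn2a1 rose by 0.30 (SE 0.07, adjusted p = 0.0251), from 38.8 to 117 CPM, a call lost without any one of E12.5, the E14.5 samples and E16.5. Cacng2 rose by 0.28 (adjusted p = 0.0498), a call lost in 11 of 17 alternatives. Kcna1 was the member that fell, by 0.42 per day (SE 0.07, adjusted p = 0.0103), through 46.8, 32.6, 35.3, 25.0, 12.6 and 8.53 CPM, a call lost without E18.5. Kcnq3 had no constant direction, being highest at 279.6 CPM in E14.5 replicate 2 and lowest at 104 CPM at E18.5.

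**Figure D5:**
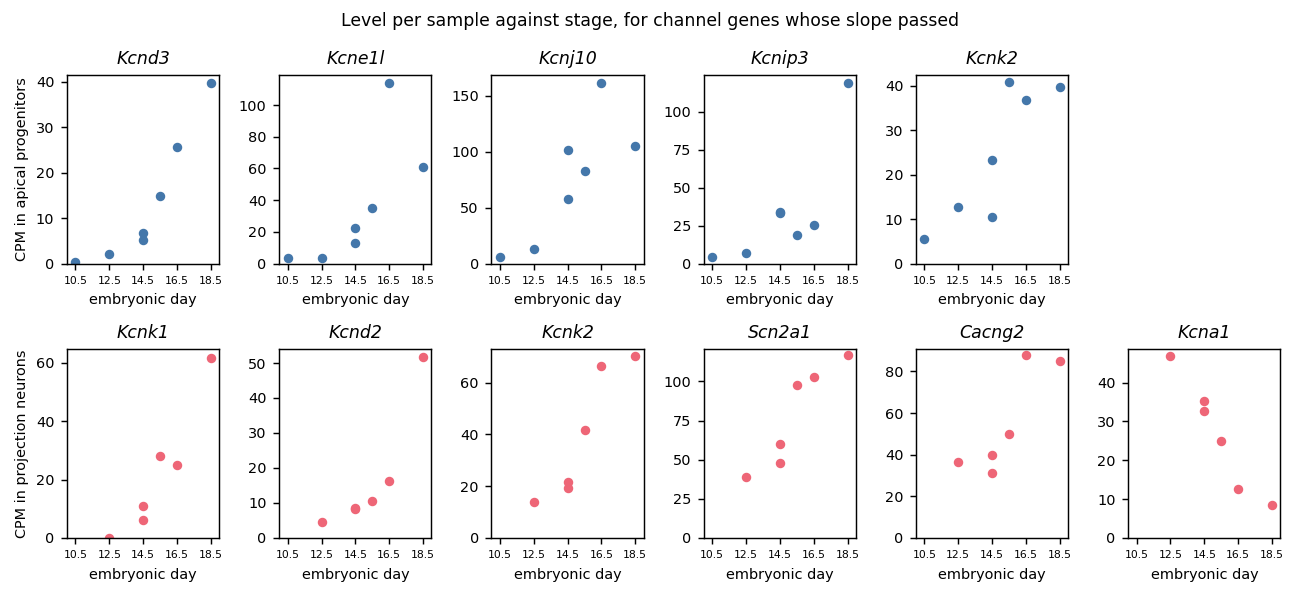
CPM (vertical axes, each from 0) against embryonic day (horizontal axes) for the 5 members whose slope passed in apical progenitors (upper panels) and the 6 in projection neurons (lower panels); each point is 1 sample. Kcna1 falls from 46.8 to 8.53 CPM, and the other 10 panels end higher than they start.

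These slopes also go with a change of labels, since label 2 gave way to labels 5 and 9, which held 65.7% and 32.4% of the projection neurons at E18.5. Without label 2, Kcnd2 (0.66), Kcnk1 (0.55) and Kcnk2 (0.45) passed, and Scn2a1 (0.20), Cacng2 (0.24) and Kcna1 (−0.32) did not. Without E18.5, 3 members passed. With the cells of near-identical barcodes left out, 5 members passed in each of apical progenitors and projection neurons. In label 0, edgeR found none of 23 tested members past the threshold, with 1.46% of 7347 genes changed (0.857% rose, 0.599% fell). There, 8 members had an unadjusted p under 0.05, and DESeq2 also called 0; without E14.5 replicate 2, 1 member passed. In interneurons, edgeR called none of 8 tested members, with 1.86% of 3379 genes changed (1.24% rose, 0.621% fell), 4 members had an unadjusted p under 0.05 and DESeq2 called 0. Leaving out E18.5 gave 1. The members' median slopes were 0.16 in label 0 and 0.21 in interneurons, against 0.00 over all genes in both.

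The 4 projection neuron labels differed among themselves in their channel genes, described here without a test because the labels were built from the same genes. The values are the lowest, median and highest over the 4 or 5 samples with at least 20 cells of the label. These samples differ between labels, from E12.5 to E15.5 for label 2, E14.5 to E18.5 for labels 5 and 9 and E14.5 to E16.5 for label 11, so that label and stage cannot be told apart in the ranges. Kcna1 was at 40.3, 44.4 and 50.4 CPM in label 2, led by Sox5 and Bcl11b, and at 5.45, 8.14 and 19.7 CPM in label 9. In the samples that hold both, it was at 40.3 against 19.7 CPM (E14.5 replicate 1) and 48.3 against 6.48 CPM (E15.5). Cacna1e was at 46.4, 66.3 and 94.4 CPM in label 11, led by Hs3st4, Grik3 and Syt6, against a highest value of 45.1 CPM in the other labels. Cacnb4 in label 11 was at 92.8, 98.4 and 137 CPM, and label 2 at 36.1, 43.4 and 62.8. Cacna2d1 went the other way, with 57.2, 91.8 and 144 CPM in label 11 and 203, 220.1 and 400.1 CPM in label 5, which carries Mef2c and Nefl. Scn1a had 31.8, 38.5 and 58.8 CPM in label 5 and 3.78, 7.82 and 11.9 CPM in label 11. Kcnk2 had 43.9, 71.5 and 74.2 CPM in label 5 against 13.5, 18.1 and 29.0 CPM in label 2. In the samples shared by these labels it was at 47.1 against 20.6 CPM (E14.5 replicate 1), 43.9 against 13.5 CPM (E14.5 replicate 2) and 71.5 against 29.0 CPM (E15.5). The medians of Scn8a over the 4 labels ran from 36.9 to 46.6 CPM.

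Counting strand was not given in the sources used here. For 36 of the 126 members an exon shares bases with a gene on the other strand, Cacng2, Cacnb4, Cacna1d and Kcnk2 among them, and for 3 with a gene on the same strand (Cacng8, Kcnab2 and Kcnk4). Reads of such a pair cannot be told apart without strand.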

How the data were processed

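Dorsal forebrain cells of CD-1 embryos were profiled with Drop-seq, per the labels' protocols. The authors used Drop-Seq tools 3.1, per the labels' protocols, and the mm10 genome and Seurat 3.1.5, per the submitters' processing notes. The deposited values were UMI counts for 21862 genes in 10261 cells, with the library and 1 of 19 cluster numbers of each cell, and every cell had at least 501 genes. For aligner, annotation and strand, the entry is: not given in the sources used here. The 12 libraries were matched to 7 samples by name, except 1 of E14.5 replicate 1, whose name was matched in part and only by inference. Sample totals were 1519473 to 6638760 UMIs.

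Counts were summed by class and sample (at least 20 cells) and tested with edgeR 4.0.16 (filterByExpr, TMM, glmQLFit and glmQLFTest, limma 3.58.1, R 4.3.3), with Benjamini-Hochberg adjustment and a threshold of 0.05. The class comparisons used 1 fit with the sample as a block, since sums of 1 sample come from the same dissected tissue and libraries. Slopes on embryonic day used 1 class each. DESeq2 1.42.0 and further filters, scalings and left-out samples served as alternatives. Scrublet, run in Python with scanpy 1.11.5, called 95 cells (0.926%) doublets, left out only in an alternative. Counting intervals are exact 95% binomial intervals and, like the floor of 3 counts, cover counting error only. The methods were tested on simulated data.

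Named genes were 39 fixed genes of all roles. To these came up to 6 members past the threshold per direction and comparison with the largest change and at least 20 CPM, and up to 4 per slope with at least 10 CPM. Others named were chosen after their values were seen. The members and lists were chosen with earlier results of these data known. Gene positions are from GENCODE M21 and promoters from RefSeq, on GRCm38. Protein sequences were not used here. Some genes that enter the counts are not reported here by name.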

Additional observations from a re-analysis of the deposited data

Results flagged for a closer look

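Labels 14 to 18 (hem-like, mesenchymal, endothelial, microglial and mural cells) entered no comparison. Of the members with at least 10 UMIs in the label where they were highest, 6 had their highest level in 1 of these labels. Kcnj8 (Kir6.1) had 51 UMIs, 798 CPM, in the 25 mural cells of label 18, which it helps define. Kcnj2 (Kir2.1) had 49 UMIs in the 50 endothelial cells of label 16, 177 CPM, where 3 counts are 10.8 CPM and the highest of labels 0 to 13 was 4.75 CPM. Kcne3 had 20 UMIs there, 72.3 CPM. In the 213 hem-like cells of label 14, Kcnk2 was at 81.6 CPM, Cacna1g at 20.4 CPM and Kcnh2 at 11.8 CPM, with 70.0, 18.6 and 9.31 CPM in the next labels. Most samples hold few of these cells (E10.5 gave 175 of the 213 hem-like ones), and no test between samples was made.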

How the results depend on the processing

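Of 96 results for single genes past the threshold, 63 held their direction and their side of the threshold in each alternative that could test them. Over 1488 values in alternatives, 1359 held, 127 missed the threshold in the same direction, and 2 reversed: Kcnb2 (−1.31) and Kcnip1 (−0.46) in Cajal-Retzius cells against projection neurons, with sums of at least 50 cells only, where 1 sample holds both classes.

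With no low count filter, 16 members passed between apical and intermediate progenitors, 27 between intermediate progenitors and label 0, 28 between label 0 and projection neurons, 23 between interneurons and projection neurons, 24 between Cajal-Retzius cells and projection neurons, and 11, 4, 10 and 3 for the slopes in apical progenitors, label 0, projection neurons and interneurons. These fits tested every gene with at least 1 UMI, hence more members, so the counts do not compare with those above. The shares of all genes called in the alternatives of this section are not reported here. With sums of at least 50 cells the counts were 14 (intermediate against apical progenitors), 22 (projection neurons against label 0) and 9 (Cajal-Retzius cells against projection neurons, which share only 1 sample there). Without the block for the sample, 8 members passed in interneurons against projection neurons and 8 in Cajal-Retzius cells against projection neurons; no other count moved by over 1.5 times under that change of pairing. With label 2 alone, 6 passed between projection neurons and label 0. For slopes, cells with at least 1000 UMIs gave 1 in label 0, E14.5 samples summed gave 8 in apical progenitors and 1 in label 0, leaving out labels 12 and 6 gave 2 in apical progenitors, and leaving out label 2 gave 3 in projection neurons.

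Leaving out 1 sample at a time gave 7 to 13 members for intermediate against apical progenitors, 14 to 21 for label 0 against intermediate progenitors, 9 to 17 for projection neurons against label 0, 15 to 19 for interneurons against label 0, 8 to 16 for interneurons against projection neurons and 10 to 16 for Cajal-Retzius cells against projection neurons. The slopes gave 4 to 8 in apical progenitors, 0 to 1 in label 0, 3 to 7 in projection neurons and 0 to 1 in interneurons. The causes of these changes were not tested. Leaving out the cells of near-identical barcodes was an alternative chosen after seeing the data. Depth limits the account to 61 members tested in at least 1 fit, and 65 did not pass the low count filter in any.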
